A study of Homo sapiens with 5 samples.

Results

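The genes described here are targets of the transcription factor p53 and regulators of apoptosis, 37 genes listed by name. They were chosen to ask whether HEK293 cells edited at rs11607019 showed a p53 response against unedited cells, with no threshold on a measured value. Of the 37 genes, 36 had a row in the deposited table and all 36 passed the filter on low counts, out of 16310 genes tested in all. SPATA18 was not analysed here. HEK293 is an established human embryonic kidney cell line. The 2 Control libraries are labelled wild type, and the 3 variant libraries carry the T-to-C change of rs11607019, which the series places in SIRT3. Cells were in basal culture, and the labels name no treatment. The labels do not say whether libraries are different clones or repeats of 1 clone, so p-values measure only the spread between these libraries.

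In an unstressed cell p53 is kept low by MDM2, a ubiquitin ligase that p53 itself induces, with the related protein MDM4. After DNA damage p53 is stabilised and raises genes that stop the cell cycle, repair DNA or start apoptosis. HEK293 cells were transformed with adenovirus DNA, and an adenoviral early protein that they make binds p53 and holds back its activity. In the mitochondrial pathway of apoptosis, BH3-only proteins such as PUMA (BBC3) and NOXA (PMAIP1) neutralise the survival proteins BCL2, BCL-XL (BCL2L1) and MCL1. BAX and BAK then open the outer mitochondrial membrane, and released cytochrome c joins APAF1 to switch on caspases.

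Library totals lay between 17122569 and 17596084 counts. Of the markers fixed for HEK293, VIM, KRT8, KRT18, PAX2 and LHX1 were measured in every library. VIM was between 328 and 618 CPM, KRT8 between 226 and 371 CPM and KRT18 between 45.5 and 95.1 CPM. PAX2 (between 9.94 and 22.0 CPM) and LHX1 (between 9.54 and 21.1 CPM) were lower. CDH2, NEFL and NEFM were not analysed here. Of 9 markers of other cell types, the 2 with rows in the table were the collagen genes COL1A1 and COL3A1. COL1A1 was between 28.4 and 46.3 CPM, above PAX2 and LHX1 in every library. COL3A1 was between 1.26 and 2.65 CPM, and the groups overlapped at both collagen genes. CPM stands for the count of a gene scaled to a common library total, after adjustment by the trimmed mean of M-values (TMM). RNA came from whole cultures, so a change in the number of responding cells and a change in RNA per cell cannot be told apart.

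No member passed a Benjamini-Hochberg adjusted p of 0.05 by the quasi-likelihood test of edgeR. The count was 0 of 36, where 0% of all tested genes passed, and the smallest adjusted p of a member was 0.616. At an unadjusted p under 0.05 there were 5 members (13.9%), against 7.62% of all tested genes. Of these, 4 (XPC, BAX, AEN and PHLDA3) were higher in the variant libraries, as were 4.11% of tested genes, and 1 (RPS27L) was lower, as were 3.51%. DESeq2's Wald test also called 0 of 36 members at an adjusted p of 0.05, against 0.213% of the genes it gave one, and its smallest adjusted p was 0.188, for XPC.

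The members leaned upward without any of them passing the test. A log2 fold change above 0 was found for 25 of 36 members (69.4%) and for 50.5% of all tested genes. The median log2 fold change was 0.17 over the 29 p53 targets among them and 0.19 over the 9 BCL2 family genes, which share BBC3, PMAIP1 and BAX (MDM4 is in neither group). Without variant 1 the BCL2 family median was 0.06. It was 0.003 over all tested genes. The groups did not overlap at 12 of 36 members (33.3%), against 24.8% of all tested genes. In 10 of the 12 every variant library lay above both Control libraries (27.8% of members, against 11.8% of tested genes), and in the other 2, RPS27L and TIGAR, every variant library lay below both (5.56%, against 13.0%). Absolute fold changes of at least 1.5 were found for 2 members, PLK2 and XPC, and for 10.2% of tested genes.

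**Figure D1:**
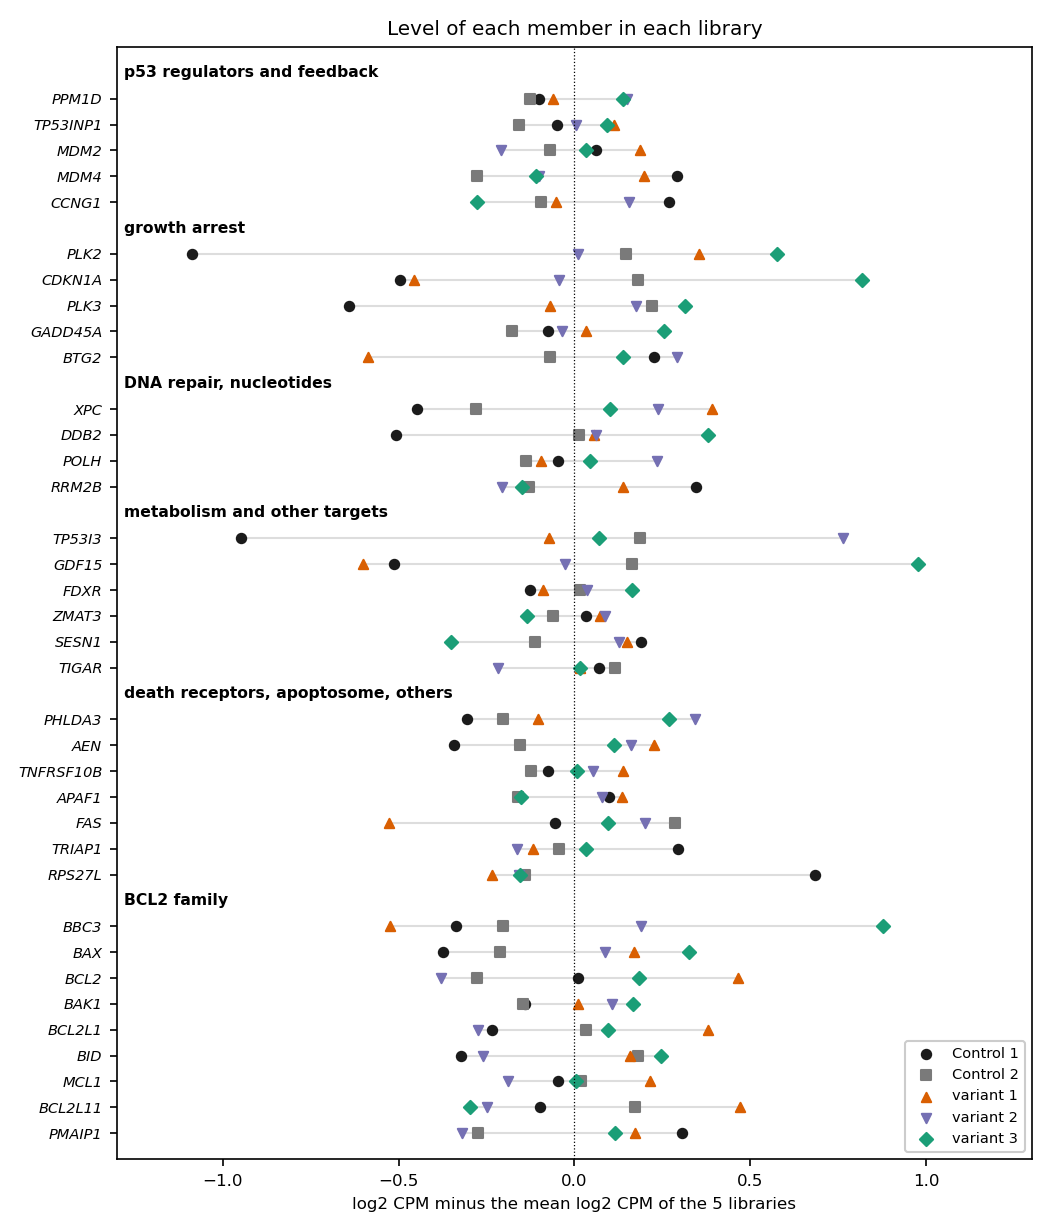
Level of each of the 36 members in each library, as log2 CPM minus the mean of the 5 libraries (x axis), with genes grouped by role (y axis) and 1 symbol per library. XPC, BAX and AEN show both Control libraries to the left of all variant libraries, while CDKN1A, GDF15 and BBC3 are spread by variant 3 on the right.

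The promoters of these genes were searched for the p53 half-site, the p53 consensus of 10 bases made of 3 purines, C, 2 bases that are A or T, G and 3 pyrimidines. It reads the same on both strands, so a search of 1 strand covers both. Promoter sequences of 300 bases (250 before and 50 after an annotated start) came from RefSeq on GRCh38.p14 and matched 30 members. GADD45A, MCL1, PHLDA3, RRM2B, TNFRSF10B and TP53INP1 had no entry. A half-site was found at 8 of the 30 members (26.7%) and at 7.45% of 10850 tested genes with an entry. Of all 35116 promoters in the table, 6.63% held it. A pair of adjacent half-sites with at most 2 mismatches in 20 bases, keeping the C and G of each core, was found at 4 members (13.3%) and at 0.341% of those tested genes. A match is a description of the letters only, and genes are often named p53 targets because such sites were found there.

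The matches are shown so that the sites can be set beside the fold changes, 5′ to 3′ on the strand of the gene, with the site in capitals. In MDM2, FAS and AEN the capitals mark the pair with 2 mismatches and in DDB2 2 exact half-sites 1 base apart, the first of which also makes a pair with the 10 bases before it, at 1 mismatch. In the rest they mark a single exact half-site.
AEN: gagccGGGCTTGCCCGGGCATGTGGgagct
RPS27L: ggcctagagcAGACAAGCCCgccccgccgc
PLK2: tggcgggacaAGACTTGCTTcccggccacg
DDB2: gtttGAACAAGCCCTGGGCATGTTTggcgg
BAK1: aaagtgggcgGGACATGCTCctgggcctgg
MDM2: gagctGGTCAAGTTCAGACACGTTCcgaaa
FAS: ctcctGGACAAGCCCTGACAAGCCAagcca
SESN1: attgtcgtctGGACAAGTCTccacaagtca
FDXR: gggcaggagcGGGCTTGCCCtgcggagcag

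Their windows on GRCh38.p14 are chr15:88621301-88621330 for AEN, chr15:63157517-63157546 for RPS27L (reverse strand), chr5:58460199-58460228 for PLK2 (reverse strand) and chr11:47214975-47215004 for DDB2. BAK1 lies at chr6:33580330-33580359 (reverse strand), MDM2 at chr12:68808918-68808947 and FAS at chr10:88991304-88991333. SESN1 lies at chr6:109009018-109009047 (reverse strand) and FDXR at chr17:74872986-74873015 (reverse strand). The MDM2 site lies before the start of its inner promoter, from which p53 is known to drive the gene.

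AEN and RPS27L, of these genes, had an unadjusted p under 0.05 and opposite directions, so the 250 bases upstream of their starts are also given, with the exact half-site in capitals. That of AEN (chr15:88621090-88621339) begins 34 bases before the start and that of RPS27L (chr15:63157478-63157727, reverse strand) 59 bases before it.
AEN: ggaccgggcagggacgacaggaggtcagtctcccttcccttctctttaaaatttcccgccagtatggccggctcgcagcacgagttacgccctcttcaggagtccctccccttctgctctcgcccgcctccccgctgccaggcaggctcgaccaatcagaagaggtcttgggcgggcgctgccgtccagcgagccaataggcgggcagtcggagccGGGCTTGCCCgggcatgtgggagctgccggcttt
RPS27L: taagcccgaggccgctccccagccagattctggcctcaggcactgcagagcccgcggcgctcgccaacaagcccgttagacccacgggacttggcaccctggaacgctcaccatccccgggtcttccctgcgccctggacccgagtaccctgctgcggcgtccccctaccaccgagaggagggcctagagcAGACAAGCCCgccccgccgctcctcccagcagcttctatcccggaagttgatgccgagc

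Of the 9 members with either match, 6 had a fold change above 0 and 3 below, with a median log2 fold change of 0.09. Of the 21 with an entry and neither match, 14 were above 0 and 7 below, with a median of 0.16. Most members were above 0 whether or not a site was found, and the difference of the medians was not tested. Sites outside the 300 bases were not searched, so a member with neither match can still hold a p53 site elsewhere.

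The genes that restrain p53 or are induced with it as feedback differed little. MDM2 (ENSG00000135679, chromosome 12, 68808176 to 68850686, forward strand), the classic feedback target, stood at 101 and 91.9 CPM in the Control libraries and at 109.7, 83.5 and 98.7 CPM in the variant libraries. The lowest and the highest library were both variant libraries, and the log2 fold change was 0.01 (SE 0.17, 95% confidence interval −0.36 to 0.39). Its partner MDM4 had 80.7 and 54.5 CPM in Control against 75.7, 61.5 and 61.2 CPM, all within the range of the Control libraries.

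PPM1D, the phosphatase WIP1 that ends the p53 response, had 44.9 and 44.1 CPM in Control and 46.1, 53.4 and 52.98 CPM in the variant. TP53INP1, a nuclear cofactor of p53, had 16.5 and 15.3 CPM against 18.4, 17.1 and 18.2 CPM. In both genes the groups did not overlap, but the log2 fold changes of 0.19 (SE 0.16) and 0.17 (SE 0.19) were near their standard errors. CCNG1 (cyclin G1), among the most abundant members, had 298 and 231 CPM against 238, 275 and 204 CPM, with overlapping groups.

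Among genes of growth arrest, CDKN1A encodes p21, the cyclin-dependent kinase inhibitor through which p53 stops the cell cycle (ENSG00000124762, chromosome 6, 36676460 to 36687339, forward strand). It stood at 95.4 and 152 CPM in the Control libraries and at 98.0, 130.3 and 236 CPM in the variant libraries. Only variant 3 lay above both Control libraries, and variant 1 was close to Control 1. Its log2 fold change was 0.32 (SE 0.36, 95% confidence interval −0.49 to 1.14), and without variant 3 it was −0.12.

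PLK2, a polo-like kinase induced by p53, had the highest fold change of any member. It stood at 8.51 and 20.02 CPM in Control and at 23.1, 18.2 and 26.9 CPM in the variant, so variant 2 lay between the Control libraries. Variant against Control, the log2 fold change was 0.67 (SE 0.34) (edgeR, unadjusted p 0.0767, adjusted p 0.667). It rested on Control 1, without which it was 0.18, and it was 1.42 without Control 2.

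The related kinase gene PLK3 had the same low library, with 5.25 and 9.52 CPM in Control and 7.80, 9.24 and 10.2 CPM in the variant. GADD45A, a damage-inducible growth arrest gene, had 58.8 and 54.7 CPM against 63.3, 60.4 and 73.9 CPM, with groups that did not overlap and a log2 fold change of 0.22 (SE 0.17). BTG2, an antiproliferative gene, had 71.6 and 58.2 CPM against 40.7, 74.9 and 67.3 CPM. For BTG2 variant 1 was the lowest library and variant 2 the highest.

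The repair genes held the member with the smallest p. XPC, which recognises DNA damage for nucleotide excision repair (ENSG00000154767, chromosome 3, 14145147 to 14178783, reverse strand), stood at 34.6 and 38.9 CPM in Control. It stood at 62.0, 55.6 and 50.7 CPM in the variant libraries, all above both Control libraries. The log2 fold change was 0.61 (SE 0.17) (edgeR, unadjusted p 0.00599, adjusted p 0.616). Left-out libraries moved it between 0.53 and 0.70. In the annotation 23.8% of the exon bases of XPC are shared with an antisense gene on the other strand. Protein-coding genes on that strand share 8.61% (AC090004.1) and 6.63% (LSM3) of them. Whether the counting used the strand is not given in the sources used here.

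DDB2, its partner in recognising ultraviolet damage, also had every variant library above both Control libraries. Its values were 32.5 and 46.7 CPM in Control and 48.1, 48.2 and 60.2 CPM in the variant, and 2 of the variant libraries were close to Control 2. DDB2 had a log2 fold change of 0.40 (SE 0.21), and it was 0.16 without Control 1 and 0.68 without Control 2. POLH, a translesion DNA polymerase, had 32.9 and 31.0 CPM against 31.9, 40.1 and 35.1 CPM. RRM2B, the p53-induced small subunit of ribonucleotide reductase, had 38.7 and 27.8 CPM against 33.5, 26.4 and 27.4 CPM, so the groups overlapped at both.

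Among targets with roles in metabolism and redox balance, the groups were apart only at TIGAR, a regulator of fructose bisphosphate levels. TIGAR had 12.6 and 13.0 CPM in Control and 12.1, 10.3 and 12.1 CPM in the variant, a log2 fold change of −0.15 (SE 0.22), and 42.6% of its exon bases are shared with another annotated gene on the same strand. TP53I3, a quinone oxidoreductase gene, stood at 8.28 and 18.2 CPM in Control and at 15.2, 27.1 and 16.8 CPM in the variant. Control 1 was low and variant 2 high, while the other 3 libraries lay close together. The log2 fold change of TP53I3 was 0.57 (SE 0.36), and it was 0.11 without Control 1, 1.25 without Control 2 and 0.27 without variant 2.

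GDF15, a secreted stress cytokine that p53 induces strongly in many cells, was the member with the lowest level. The libraries held 19 and 31 counts in Control and 18, 27 and 55 counts in the variant. Its levels were 1.11 and 1.77 CPM against 1.04, 1.55 and 3.11 CPM. Variant 3 had the highest level and variant 1 the lowest. GDF15 had a log2 fold change of 0.40 (SE 0.50), and without variant 3 it was −0.15.

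The remaining genes of this group had overlapping groups. FDXR, a mitochondrial ferredoxin reductase gene, had 40.2 and 44.4 CPM in Control and 41.3, 45.0 and 49.1 CPM in the variant. SESN1, a stress-induced inhibitor of mTOR signalling, had 43.7 and 35.5 CPM against 42.5, 41.8 and 30.05 CPM. ZMAT3, which encodes an RNA-binding protein, had 23.6 and 22.1 CPM against 24.3, 24.5 and 21.01 CPM. Their log2 fold changes were 0.09, −0.05 and 0.02.

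Targets tied to cell death went in both directions. AEN, an exonuclease gene induced by p53 in apoptosis (ENSG00000181026, chromosome 15, 88621296 to 88632282, forward strand), stood at 126 and 144 CPM in Control and at 187, 179 and 173 CPM in the variant. All 3 variant libraries lay above both Control libraries. AEN had a log2 fold change of 0.41 (SE 0.14) (edgeR, unadjusted p 0.0171, adjusted p 0.616).

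PHLDA3, a p53-induced inhibitor of AKT signalling (ENSG00000174307, chromosome 1, 201464383 to 201469237, reverse strand), had 33.5 and 35.99 CPM in Control and 38.5, 52.5 and 49.9 CPM in the variant. Variant 1 was just above the Control libraries and the other 2 variant libraries well above. Its log2 fold change was 0.43 (SE 0.19) (edgeR, unadjusted p 0.0460, adjusted p 0.649). In the annotation 19.1% of its exon bases are shared with another gene on the same strand.

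RPS27L, a ribosomal-protein-like gene induced by p53 (ENSG00000185088, chromosome 15, 63125872 to 63158021, reverse strand), was the only member lower in the variant at an unadjusted p under 0.05. It stood at 106 and 60.0 CPM in Control and at 56.3, 59.4 and 59.5 CPM in the variant. Control 1 alone was high, and Control 2 was close to all 3 variant libraries. The log2 fold change was −0.51 (SE 0.23, unadjusted p 0.0487, adjusted p 0.651 by edgeR), and without Control 1 it was −0.04. RPS27L is close in sequence to RPS27, with which short reads can be shared.

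The death receptor gene TNFRSF10B (DR5) had 116 and 112 CPM in Control and 134, 127 and 123 CPM in the variant, groups that did not overlap at a log2 fold change of 0.17 (SE 0.14). FAS, the other death receptor on the list, had 11.3 and 14.3 CPM against 8.15, 13.5 and 12.5 CPM, with variant 1 the lowest. APAF1, the scaffold of the apoptosome, had 45.9 and 38.3 CPM against 47.0, 45.2 and 38.5 CPM. TRIAP1, a mitochondrial inhibitor of apoptosis, had 66.6 and 52.6 CPM against 50.05, 48.5 and 55.5 CPM. FAS, APAF1 and TRIAP1 had overlapping groups.

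**Figure D2:**
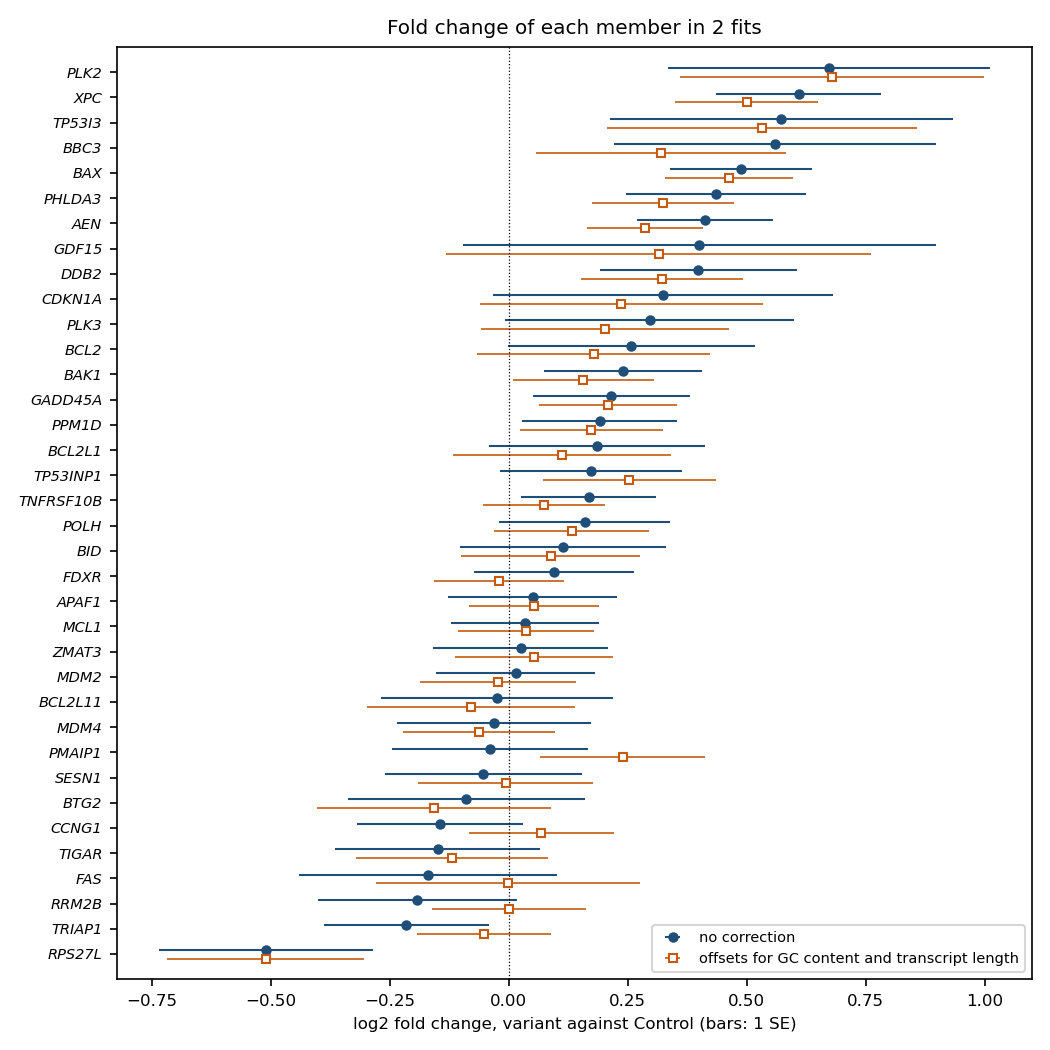
Log2 fold change of each member (variant against Control, x axis, bars of 1 SE) in the fit without correction (filled circles) and with offsets for GC content and transcript length (open squares). XPC, BAX and AEN stay to the right of 0 in both fits, and PMAIP1 moves from −0.04 to 0.24.

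In the BCL2 family, BAX differed most clearly. BAX (ENSG00000087088, chromosome 19, 48954815 to 48961798, forward strand) stood at 118 and 133 CPM in Control and at 173, 163 and 192 CPM in the variant libraries, with all 3 above both Control libraries. BAX had a log2 fold change of 0.49 (SE 0.15) (edgeR, unadjusted p 0.009265, adjusted p 0.616). It ran from 0.41, without Control 1, to 0.57, without Control 2. BAK1, the other pore-forming effector, had 33.8 and 33.6 CPM against 37.5, 40.1 and 41.8 CPM, also apart but with a log2 fold change of 0.24 (SE 0.17).

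The BH3-only genes did not move together. BBC3, a direct p53 target, stood at 29.3 and 32.1 CPM in Control and at 25.7, 42.1 and 67.7 CPM in the variant, so the lowest and the highest library were both variant libraries. Its log2 fold change was 0.56 (SE 0.34, 95% confidence interval −0.20 to 1.32), and without variant 3 it was 0.14. PMAIP1, another direct target, had 493 and 329 CPM against 449, 319 and 432 CPM, and Control 1 was the highest library. BID had 41.8 and 59.2 CPM against 58.3, 43.6 and 62.0 CPM, and BCL2L11 (BIM) had 55.8 and 67.2 CPM against 82.6, 50.2 and 48.6 CPM, both with overlapping groups.

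The survival genes overlapped between the groups as well. BCL2 had 21.6 and 17.7 CPM in Control and 29.6, 16.5 and 24.4 CPM in the variant. BCL2L1 had 22.1 and 26.6 CPM against 33.9, 21.5 and 27.8 CPM, and 43.0% of its exon bases are shared with an antisense gene. MCL1 had 213 and 223 CPM against 255, 193 and 220.4 CPM. In all 3 genes variant 1 was the highest library and variant 2 the lowest.

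Levels of different genes were compared per exon length, as TPM. For TPM, counts are divided by exon length and the results are scaled to a common sum in each library. Among BCL2 family members PMAIP1 was highest, between 498 and 738 TPM, above every value of the other 8. BAX (153 to 261 TPM) and MCL1 (154 to 206 TPM) overlapped each other and lay above BAK1 (51.1 to 66.4 TPM). BAK1 overlapped BBC3 (28.4 to 74.8 TPM), and BBC3, BID, BCL2L11 and BCL2L1 overlapped each other. BCL2 was lowest, between 4.90 and 8.88 TPM, below every value of the rest. Outside the family CCNG1 had the highest mean level, between 232 and 322 TPM, and overlapped CDKN1A (105 to 272 TPM), which was above it in variant 3. GDF15 was the least abundant, between 1.76 and 5.23 TPM.

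**Figure D3:**
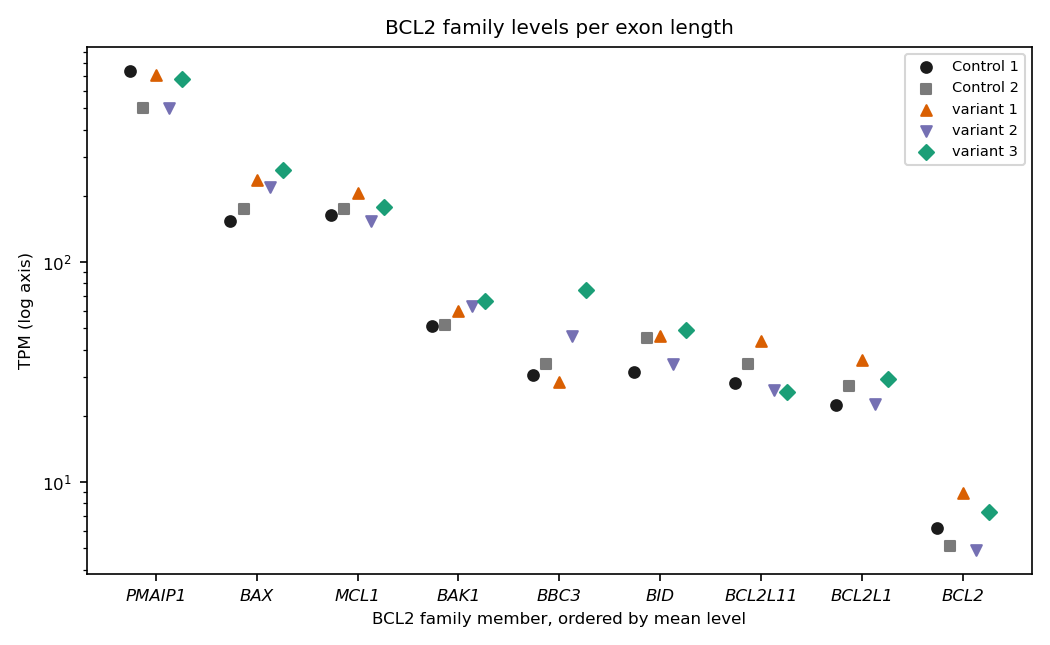
TPM of each BCL2 family member in each library (y axis, log scale), ordered by mean level (x axis). PMAIP1 lies above all others and BCL2 below all others, and BAX is the gene whose Control libraries lie clearest below the variant libraries.

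The balance between genes was followed as 7 ratios of TPM values, with no test. All set a death gene against a survival gene except BAK1 to BAX and MDM2 to MDM4. BAX to MCL1 was 0.940 and 1.01 in the Control libraries and 1.14, 1.43 and 1.47 in the variant libraries, which did not overlap. BAX to BCL2 was 24.9 and 34.0 in Control and 26.5, 44.8 and 35.8 in the variant, and BAX to BCL2L1 was 6.85 and 6.37 against 6.53, 9.69 and 8.85, both overlapping. BBC3 to BCL2L1 was 1.38 and 1.25 against 0.790, 2.04 and 2.53. BAK1 to BAX was 0.334 and 0.297 against 0.254, 0.288 and 0.254, lower in every variant library. Both ratios at which the groups did not overlap hold BAX, which was itself apart. PMAIP1 to MCL1 and MDM2 to MDM4 overlapped, with mean ratios of 3.71 ± 1.16 (SD, n = 2) and 1.22 ± 0.258 (SD, n = 2) in Control and 3.50 ± 0.304 (SD, n = 3) and 1.22 ± 0.108 (SD, n = 3) in the variant.

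No single library carried all the members upward. Variant 3 was the highest library for 11 members, variant 1 for 10, Control 1 for 7, variant 2 for 6 and Control 2 for 2. Control 1 was the lowest for 11, Control 2 and variant 2 for 8 each, variant 1 for 5 and variant 3 for 4. Set against the 5-library mean, the median log2 level of the 29 p53 targets was −0.07 and −0.11 in the Control libraries and 0.02, 0.08 and 0.10 in the variant libraries. For the BCL2 family it was −0.14 and −0.15 against 0.17, −0.25 and 0.17, so variant 2 lay below both Control libraries.

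Other genes of the pathway came from lists drawn from general knowledge. Of 71 further p53 targets, 60 were tested, and 0 passed the adjusted threshold. Their median log2 fold change was −0.02. Of them 29 were higher and 31 lower, and 5 (8.33%) had an unadjusted p under 0.05, near the 7.62% of all tested genes. PGF, a placental growth factor gene, was lower, with 15.3 ± 1.56 CPM in Control (SD, n = 2) and 8.39 ± 0.491 CPM in the variant (SD, n = 3). NINJ1, ACER2, TRIM32 and SLC12A4 were higher, with log2 fold changes of 0.74, 1.12, 0.50 and 0.48. ACER2 had a low level, 1.11 and 0.912 CPM in Control against 2.83, 2.41 and 1.36 CPM in the variant. NINJ1, ACER2 and TRIM32 lie on chromosome 9, where 86.3% of 662 tested genes were higher and the median log2 fold change was 0.35. No member lies on chromosome 9.

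Of 19 genes that act in p53 regulation, 18 were tested and 0 passed the adjusted threshold. Among those with an unadjusted p under 0.05 were CDKN2A and DAXX. CDKN2A, whose product ARF inhibits MDM2 and which also lies on chromosome 9, was higher, with 157 and 157 CPM in Control and 261, 247 and 191 CPM in the variant. DAXX, a partner of MDM2, had 97.7 and 109 CPM against 118, 131 and 172 CPM. In both genes the groups did not overlap, as at 5 of the 18 (27.8%) and at 24.8% of all tested genes.

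Of 20 cell cycle genes lowered when p53 acts through CDKN1A and the DREAM repressor complex, 10 were higher and 10 lower, and their log2 fold changes had a median of 0.01. CDK1 and RRM2 (2 of 20, 10%) had an unadjusted p under 0.05, both lower, against 7.62% of all tested genes in either direction and 3.51% lower. CDK1 stood at 257 and 180.3 CPM in Control and at 143, 141 and 154 CPM in the variant, with Control 1 the highest, and edgeR gave it an adjusted p of 0.616. Of 24 tested genes among caspases, their regulators and the rest of the BCL2 family, 3 (12.5%) had an unadjusted p under 0.05, all lower, against the same 7.62% and 3.51%. These were CYCS (cytochrome c), BIRC3 and BAD, with log2 fold changes of −0.59, −1.20 and −0.53. BIRC3 had a low level, 1.87 and 3.94 CPM in Control against 0.925, 1.61 and 1.24 CPM in the variant. CYCS had 278 CPM in Control 1, 195 CPM in Control 2 and 160.1, 155 and 155 CPM in the variant libraries.

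**Figure D4:**
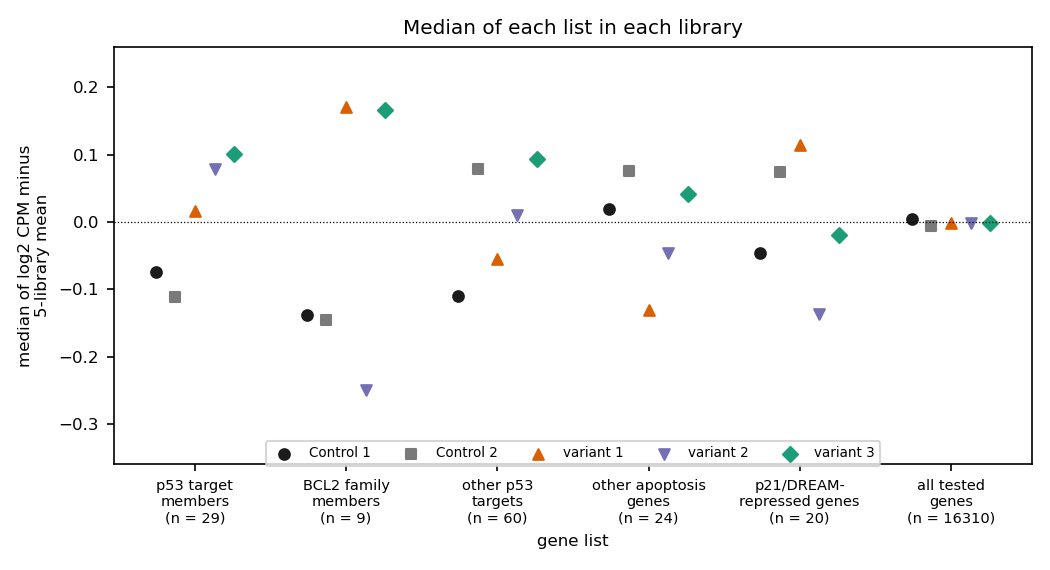
Median, over the genes of each list, of log2 CPM minus the mean of the 5 libraries (y axis), with 1 symbol per library and the number of genes under each list (x axis). The Control libraries lie below all variant libraries for the p53 target members, but not for the BCL2 family, the other p53 targets, the other apoptosis genes or the genes repressed through p21 and DREAM.

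Fold changes of the members followed the GC content of their transcripts. Over the 36 members Spearman's rho between GC content and log2 fold change was 0.737, and over 16199 tested genes it was 0.335. Genes are not independent replicates. The points share the same 5 libraries. Of 17 members at or above the median GC content of tested genes (48.6%), 16 were higher in the variant, against 63.7% of all tested genes with such GC content. Of 19 members below it, 9 were higher, against 37.2% of tested genes.

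In the fit with offsets for GC content and transcript length, the relation with GC content was smaller but still present among the members, with a rho of 0.504. The median log2 fold change of the 36 members was 0.16 without the offsets and 0.12 with them. The median log2 fold change of the 29 p53 targets was 0.17 with the offsets, 25 of 36 members were above 0, as were 47.1% of all genes. At an unadjusted p under 0.05 there were 4 members, XPC, BAX, AEN and RPS27L, against 6.54% of all genes in that fit. XPC had a log2 fold change of 0.50 (SE 0.15), BAX of 0.46 (SE 0.13), AEN of 0.29 (SE 0.12) and RPS27L of −0.51 (SE 0.21), and the smallest adjusted p of a member was 0.749 by edgeR.

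**Figure D5:**
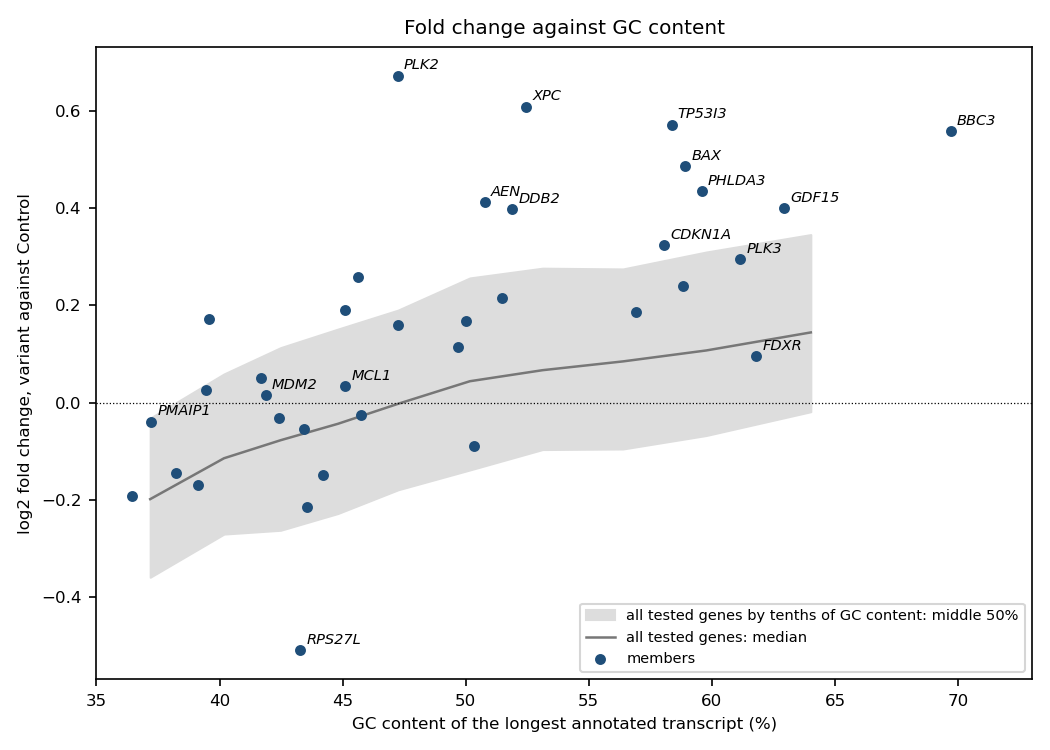
Log2 fold change of variant against Control (y axis) against the GC content of the longest annotated transcript in % (x axis). Points are the 36 members, and the line and band give the median and the middle 50% of all tested genes in bins of GC content. Members rich in GC, such as BAX and GDF15, lie above 0 and often above the band, BBC3 lies beyond its right end, and members poor in GC lie on both sides of 0.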

How the data were processed

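Raw read counts per gene, as deposited by the authors, were whole numbers for 16677 genes in 5 libraries, none below 3. Per the labels' protocols, RNA was taken with TRIzol and strand-specific mRNA libraries were read as single ends of 50 bases. The submitters' processing notes name HISAT2, SAMtools, HTSeq and hg38. The annotation, the strand setting and any gene filter are not given in the sources used here. Genes were named from a gene name table and placed by GENCODE release 29 (GRCh38).

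The whole table was filtered with filterByExpr, scaled by TMM and tested in edgeR 4.0.16 (R 4.3.3) by its robust quasi-likelihood method, with group as the only term. P-values are two-sided, adjusted by Benjamini-Hochberg over 16310 genes. TPM used the union of annotated exons. Offsets for GC content and transcript length were splines with 5 degrees of freedom per library, using the longest transcript. Alternatives included DESeq2 1.42.0 and limma-voom (limma 3.58.1). The tests were checked on simulated data. All 36 members are described. Values per library for other lists are given only at an unadjusted p under 0.05. The members, lists and alternatives were chosen with earlier results of these data known. The values of 1 listed gene are not reported here.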

Additional observations from a re-analysis of the deposited data

How the results depend on the processing

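Under 13 alternatives (other scalings and filters, DESeq2, limma-voom, a replicate block, offsets for GC content and length, and each library left out), 0 members passed an adjusted p of 0.05. DESeq2 called 32 genes of all tested, where edgeR called 0. Leaving out 1 library gave between 0 and 4 called genes of all tested and between 0 (without Control 1) and 7 (without Control 2) members at an unadjusted p under 0.05, and 3 without variant 2 or without variant 3. The share of all genes at that p was 3.34% without Control 1, 8.73% without Control 2, 4.73% without variant 2 and 9.999% without variant 3, so the 3 of 36 members without variant 3 were a smaller share than that of all genes. Left-out medians of log2 fold changes ran from 0.1134 to 0.1553 for the p53 target members, from 0.05656 (without variant 1) to 0.2516 for the BCL2 family and from −0.0507 to 0.1679 for the other p53 targets. Of single genes, 430 values kept their direction and 38 reversed, all of them for members with an unadjusted p above 0.05. A member with a small p lies far from 0 for its SE in these same libraries, so this division was largely fixed in advance. RPS27L kept its direction but had a log2 fold change of −0.04007 without Control 1.

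Leaving out 1 library moved the log2 fold change of MDM2 from −0.08059 to 0.1141, MDM4 from −0.2878 to 0.2792, CDKN1A from −0.1168 to 0.7005, BID from −0.1162 to 0.3868 and PMAIP1 from −0.301 to 0.28. It moved BCL2L11 from −0.3172 to 0.1159, MCL1 from −0.0757 to 0.1276, APAF1 from −0.07374 to 0.1848, GDF15 from −0.1507 to 0.7761 and SESN1 from −0.1961 to 0.1026. The ranges were −0.4108 to 0.06404 for RRM2B, −0.02081 to 0.09306 for ZMAT3, −0.3296 to 0.02248 for FAS, −0.07078 to 0.7895 for PLK3, −0.2647 to 0.1313 for BTG2 and −0.3165 to 0.04802 for CCNG1. With the offsets, 4 signs changed, to −0.02329 for MDM2, 0.239 for PMAIP1, −0.02086 for FDXR and 0.06776 for CCNG1. The causes were not tested.

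The labels share replicate numbers but name nothing the same-numbered libraries share. Deviations from the group means correlated at 0.154 for Control 1 with variant 1 and at −0.209 for Control 2 with variant 2 over 10864 genes. With 2 Control libraries, each value is the negative of that with the other Control library. The highest was 0.336, for Control 2 with variant 3, which do not share a number. The numbers are therefore not shown to pair the libraries. A fit with a replicate block takes up variant 3 in a term of its own, since only that library has number 3. Its group difference therefore comes from libraries 1 and 2 of each group. This fit had a median of 0.1046 both for the p53 target members and for the BCL2 family. In it 4 of 36 members (11.1%) had an unadjusted p under 0.05, near the 9.55% of all genes. Its log2 fold changes were −0.007837 for MDM2, 0.04045 for MDM4, −0.09289 for CDKN1A, 0.07316 for BCL2L11, −0.1435 for GDF15 and 0.09813 for SESN1. These signs were opposite to the fit of all 5 libraries without the block. Leaving out variant 3, with no block, gave 0.003607 for MDM2, 0.02101 for MDM4 and −0.1168 for CDKN1A. It gave 0.1097 for BCL2L11, −0.1507 for GDF15 and 0.09068 for SESN1, so only MDM2 differed in sign from the block fit.

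With 2 and 3 libraries, an exact permutation test of 1 gene cannot go below a p of 0.1. Levels of GDF15, at 18 to 55 counts, are the least precise.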
